A study of Rattus norvegicus with 63 samples.

Results

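The stress kinases MAP2K4 and MAPK14 and the transcription factor JUN were followed through the livers of rats given liver carcinogens or non-carcinogenic drugs. Every analyte whose name begins with 1 of these 3 gene symbols was taken, which gave 5 of the 158 analytes measured: JUN, MAP2K4, MAP2K4 phosphorylated at S257/T261, MAPK14, and MAPK14 phosphorylated at T180/Y182. No phosphorylated JUN was among the 158 analytes. All 5 had an RFI above 0 in each of the 63 animals.

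Stress-activated kinases work in a relay, in which a kinase of an upper tier phosphorylates and switches on the kinase below it. MAP2K4 (MKK4) stands in the middle tier and phosphorylates the JNK kinases, such as MAPK8, and the p38 kinases, of which MAPK14 (p38α) is the best known. JNK in turn phosphorylates JUN, a subunit of the AP-1 transcription factor, and in liver these proteins are known for their part in injury, regeneration and tumour growth. The phosphorylated residues measured here lie in the activation loops of both kinases, so that the phosphorylated signal follows the switched-on form and the plain signal the amount of the protein.

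Liver lysates of 63 male Wistar Hanover rats, 8 to 10 weeks old at the start by the study's methods, were measured on reverse-phase protein arrays, on which spots of lysate are probed with an antibody and read as relative fluorescence intensity (RFI, linear scale). All animals were dosed by gastric gavage, and each of the 15 compounds and each of the 6 control sets was represented by 3 animals. The study asked whether early liver changes tell compounds that cause tumours without damaging DNA (non-genotoxic carcinogens, NGC) from those that damage it (genotoxic, GC) and from non-carcinogens (NC). Treated animals had been picked for at least some visible change in liver histology, so that the values describe selected animals.

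The vehicle was methylcellulose unless stated. Control set 1 (14 days) was the labelled reference of the NGCs acetamide (AA, 3000 mg/kg per day, 14 days), dehydroepiandrosterone (DHEA, 600 mg/kg, 14 days), methylcarbamate (Mcarb, 400 mg/kg, 14 days) and methapyrilene HCl (MPy, 60 mg/kg, 7 days), and of thioacetamide (TAA, 19.2 mg/kg, 7 days) and Wy-14643 (Wy, 60 mg/kg, 3 days), whose class is undefined. Control set 2 (14 days) was that of the NCs cefuroxime (CFX, 250 mg/kg, 14 days) and nifedipine (Nif, 3 mg/kg, 14 days). Corn oil set 3 (7 days) served the GCs C.I. Direct Black (CIDB, 146 mg/kg, 7 days) and dimethylnitrosamine (DMN, 4 mg/kg, 7 days), and corn oil set 4 (14 days) served cyproterone acetate (CPA, 100 mg/kg, 14 days), of undefined class. Control set 5 (14 days) was the reference of the NGCs diethylstilbestrol (DES, 10 mg/kg, 3 days), piperonylbutoxide (PBO, 1200 mg/kg, 3 days) and ethionine (ETH, 200 mg/kg, 14 days), and set 6 (14 days) that of phenobarbital sodium (PB, 14 days, a dose given in the study's methods but not in the labels). By these labels the controls of MPy, TAA, Wy, DES and PBO were not matched for time, and time and compound cannot be told apart there. The study's methods call the vehicle controls time-matched, so labels and methods differ on this point. Compounds of a control set were compared with the same 3 control animals.

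Median RFI over the 158 analytes lay between 0.425 and 0.882 per animal. The lysates contain whole liver, and in such bulk samples fewer cells of a type and less protein per cell cannot be told apart. The hepatocyte markers measured (12 analytes, among them HNF4A and several cytochromes P450) were present, while bile duct, leukocyte, stellate and endothelial markers had no analyte here. Between control sets of the same vehicle, 0 of 35 tests of the 5 stress kinase analytes were called (limma, adjusted p below 0.05), where 0.0904% of all tests were, and 1 had an unadjusted p below 0.05. In that test phosphorylated MAPK14 was higher by 0.74 ± 0.31 (SE) on the log2 scale in corn oil set 3 than in set 4 (adjusted p = 0.342 in the limma fit).

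**Figure D1:**
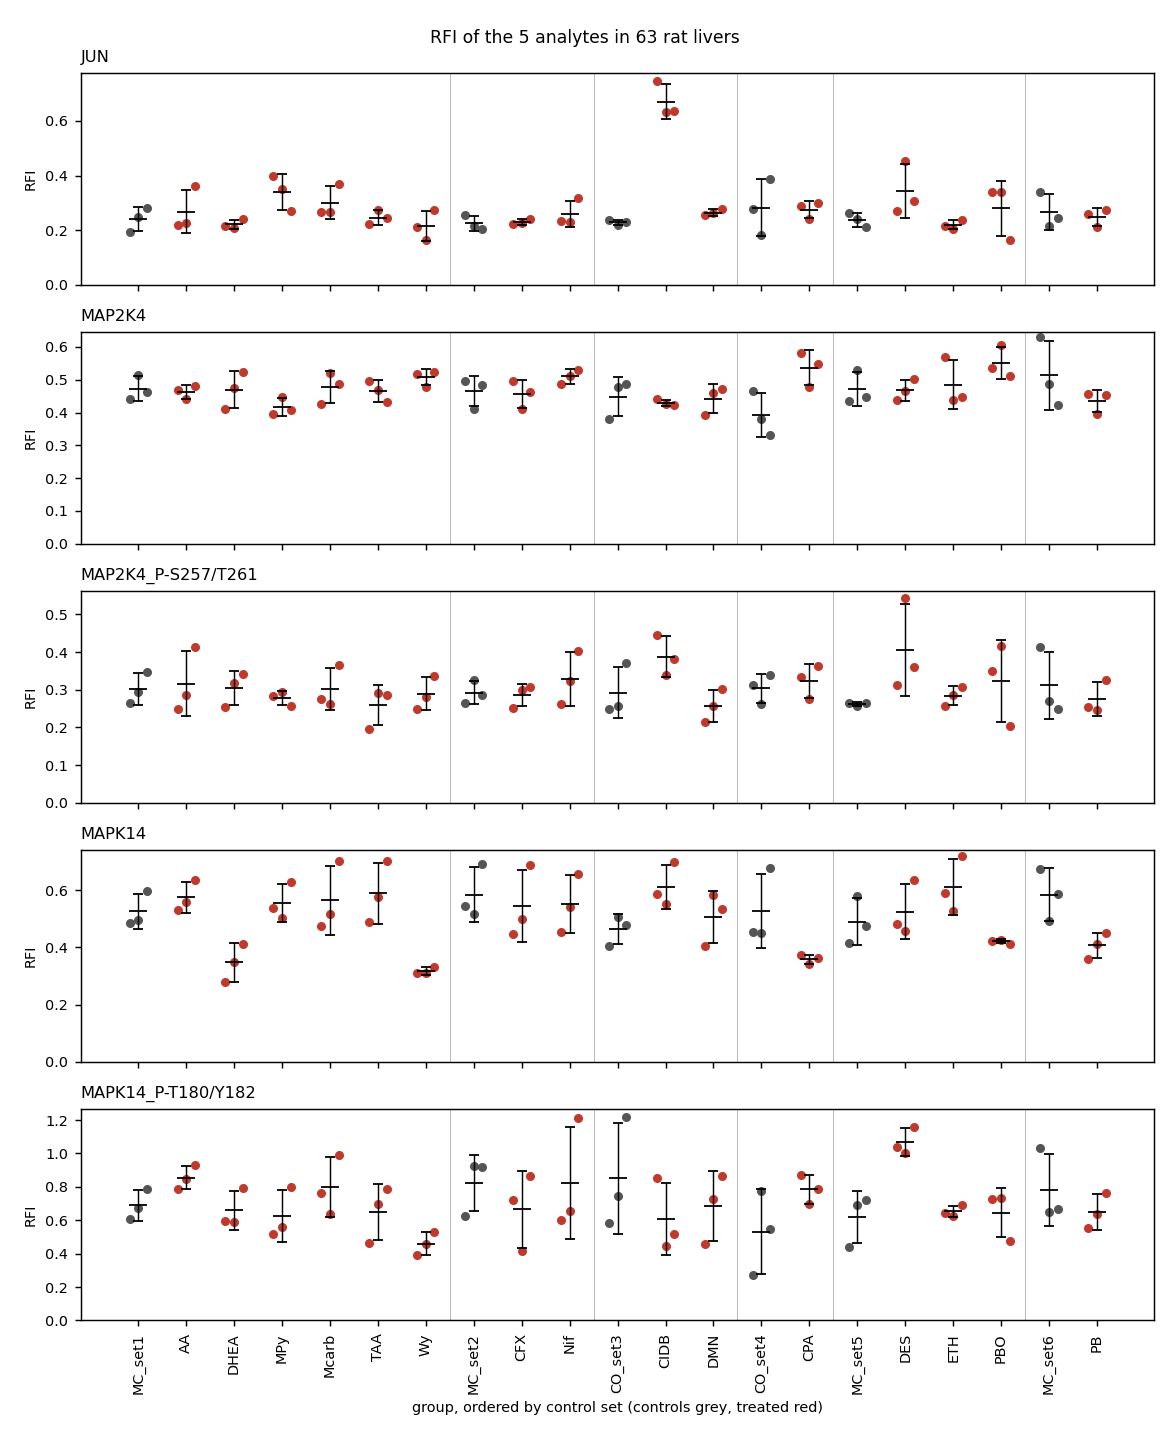
RFI (linear axis from 0) of the 5 analytes in each of the 63 animals, by group and ordered by control set. Points are animals (grey, vehicle controls; red, treated), and the bars show the mean ± SD of 3 animals; the 3 CIDB animals stand above all others for JUN, and the 3 Wy animals lie between 0.309 and 0.333 for MAPK14.

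Against the labelled control sets, JUN rose with CIDB, MAP2K4 rose with CPA, and MAPK14 fell with DHEA and with Wy. These were the 4 calls among 75 tests (5.33%), where 3.16% of the tests of all analytes were called. The other 11 compounds had no call among the 5 analytes at this number of animals, and 12 of the 75 tests had an unadjusted p below 0.05. The 3 treated animals lay wholly outside the range of their 3 controls in 12 of 75 tests (16.0%), which was near the 16.1% found over all analytes.

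JUN carried the largest difference of the 5 analytes. In the CIDB animals its RFI was 0.745, 0.631 and 0.636, and in the corn oil controls of set 3 it was 0.239, 0.22 and 0.23. Every CIDB animal was above every other animal of the study, whose JUN values ended at 0.454 in a DES animal. The mean rose from 0.23 ± 0.00946 to 0.671 ± 0.0642 (SD, n = 3), a 2.91-fold difference (log2 1.54 ± 0.23 SE, limma adjusted p = 1.51e-06). With CIDB 4.43% of all analytes were called higher and 16.5% lay above their controls. The call held in all 14 alternative settings, where the log2 difference lay between 1.34 and 2.66, and the highest value came from the deposited log2 matrix. JUN belongs to the protein signature that the study chose on these animals, so its direction here is not independent evidence for that choice.

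The other genotoxic carcinogen, DMN, gave JUN values of 0.254, 0.262 and 0.278. All lay above the same 3 corn oil controls, but the log2 difference was 0.20 ± 0.23 (SE, adjusted p = 0.995 by limma), and 3.16% of all analytes lay above their controls with DMN. Compared directly, in a contrast added after the data were seen, JUN was 2.53-fold higher with CIDB than with DMN (log2 1.34 ± 0.23, adjusted p = 3.23e-05 by limma, where 3.16% of all analytes were called).

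DES and MPy came next in the order of JUN levels. The DES animals read 0.27, 0.454 and 0.307 against 0.262, 0.241 and 0.21 in set 5, so that the lowest treated animal was just above the highest control, as was so for 10.1% of all analytes with DES. The MPy animals read 0.398, 0.35 and 0.27, and the last of them was below the 0.28 of a set 1 control. In both compounds the log2 difference was 0.50 ± 0.23 (SE) and was not called (adjusted p = 0.391 for DES and 0.47 for MPy, limma). Against all controls of the vehicle, centred on each animal's median, both were called, as were 7.59% of all tests. There DES gave 0.49 (adjusted p = 0.0354) and MPy 0.66 (adjusted p = 0.0098, both limma). Group means of JUN ran from 0.216 with Wy to 0.671 with CIDB, and apart from CIDB every group overlapped its neighbour in this order.

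MAP2K4 was the steadiest of the 5 analytes. Its SD between animals of a group was 0.15 on the log2 scale, and 1 of the 158 analytes varied less. Over all 63 animals its RFI stayed between 0.331 and 0.63, a range set by control animals at both ends. No neighbouring groups in the order of its levels were separated, from 0.392 in corn oil set 4 to 0.552 with PBO.

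With CPA, a synthetic progestin and antiandrogen, MAP2K4 read 0.583, 0.478 and 0.547. The controls of set 4 read 0.465, 0.38 and 0.331, all below the treated animals, and they were the lowest group for this protein. MAP2K4 was 1.38-fold higher (log2 0.46 ± 0.13 SE, adjusted p = 0.0235 by limma), in a comparison where 5.06% of all analytes were called, all higher, and 18.4% lay above their controls. The median of all 158 analytes was itself 0.23 higher with CPA on the log2 scale. After each animal was centred on its median the difference was 0.24 (adjusted p = 0.165), in the log2 matrix 0.37 (adjusted p = 0.444) and against all corn oil controls 0.36 (adjusted p = 0.0534), and with only the 6 animals of the comparison adjusted p was 0.476. The call was also lost without CPA animal 1 or 3 or without control 2 or 3 of set 4, with log2 differences from 0.35 to 0.59 over the 6 animals left out in turn. These fits did not pair animals by number. With a block for the animal number the difference stayed 0.46 (adjusted p = 0.0119 by limma).

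Phosphorylated MAP2K4 had no call in any compound against the labelled control sets. Its highest group was DES, with RFI values of 0.313, 0.545 and 0.361 against 0.266, 0.257 and 0.266 in the controls. The 3 treated animals were above the controls, but the middle one was well above the other two, and the log2 difference of 0.59 ± 0.22 (SE) was not called (adjusted p = 0.269, limma). CIDB followed with 0.445, 0.339 and 0.381 against 0.25, 0.257 and 0.371, which overlapped (log2 0.42, adjusted p = 0.302, limma). Over the 15 compounds the log2 differences of phosphorylated MAP2K4 ran from -0.24 to 0.59, with 8 above 0 and 7 below.

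**Figure D2:**
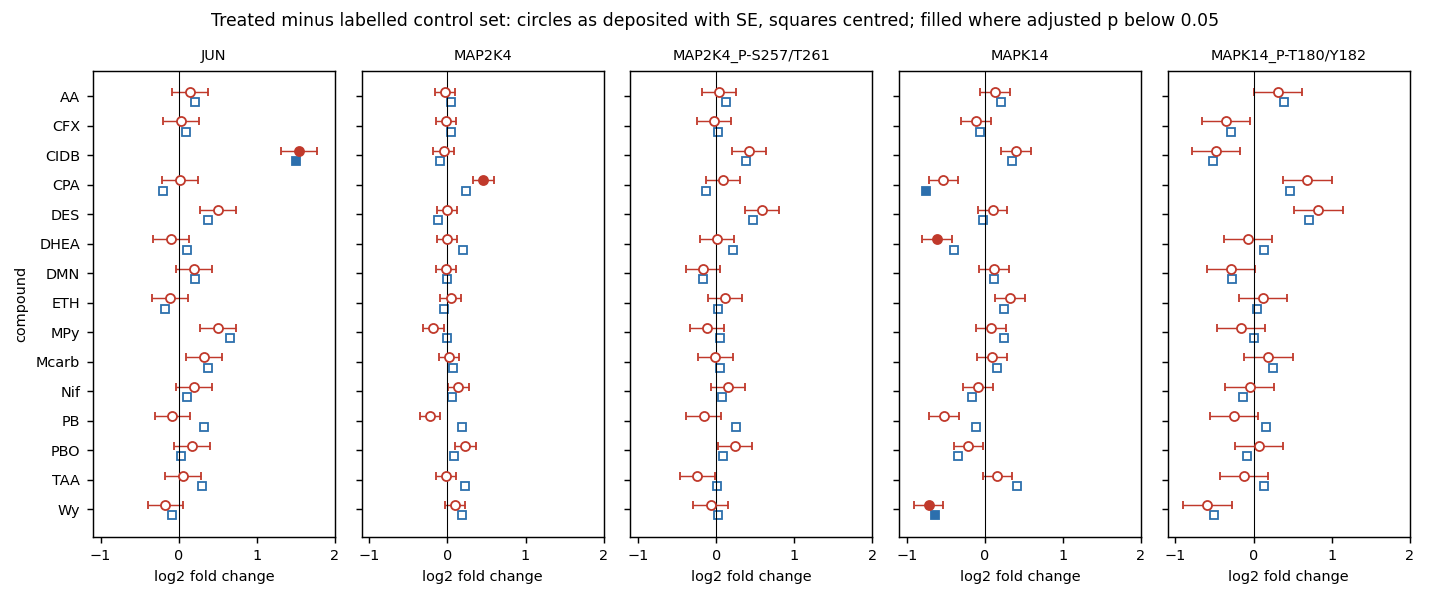
Log2 fold change of each analyte (x axis) in each compound (y axis) against its labelled control set. Red circles show the RFI as deposited with the SE of the limma fit, blue squares the values after centring each animal on its median, and filled symbols an adjusted p below 0.05; JUN in CIDB and MAPK14 in Wy are filled in both.

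Total MAPK14 fell with 2 compounds. In the Wy animals its RFI was 0.309, 0.31 and 0.333, and in the controls of set 1 it was 0.486, 0.496 and 0.597. The treated values were close together and far from the controls, and they formed the lowest group of the study. The mean was 0.317 ± 0.0139 against 0.526 ± 0.0612 (SD, n = 3), which was 1.65-fold lower (log2 -0.72 ± 0.19 SE, adjusted p = 0.0053 by limma), and with Wy 7.59% of all analytes were called lower and 22.2% lay below their controls. Wy-14643 is a peroxisome proliferator that acts on PPARα. The fall was also called after centring (-0.64, with 14.6% of all analytes called) and in the log2 matrix (-0.80), and leaving out control 6 of set 1 moved it to -0.63 (adjusted p = 0.0516), the only 1 of 14 alternatives in which it was not called.

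DHEA, a steroid that also causes peroxisome proliferation in rat liver, gave MAPK14 values of 0.279, 0.35 and 0.413. All 3 were below the same set 1 controls, though they spread more than the Wy animals. MAPK14 was 1.53-fold lower (log2 -0.61 ± 0.19 SE, adjusted p = 0.0329 by limma), and 5.06% of all analytes were called lower and 24.1% lay below their controls. The median of all analytes was 0.18 lower on the log2 scale with DHEA. After centring the difference was -0.40 (adjusted p = 0.177) in the log2 matrix -0.42 (adjusted p = 0.162), and with only the 6 animals of the comparison adjusted p was 0.117. Of the 6 animals of this comparison only DHEA animal 3 could be left out without losing the call, and the log2 difference then ranged from -0.75 to -0.46 over the 6.

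AA and Mcarb were dosed for the same 14 days as DHEA and share its controls. Their MAPK14 values were 0.532, 0.558 and 0.637 with AA and 0.474, 0.519 and 0.703 with Mcarb, and the highest DHEA animal read 0.413. In direct contrasts added after the data were seen, 3 of 35 tests of the 5 analytes were called, against 2.26% over all analytes. MAPK14 was 1.67-fold higher with AA than with DHEA (log2 0.74 ± 0.19, adjusted p = 0.011 by limma, where 2.53% of all analytes were called). It was 1.62-fold lower with DHEA than with Mcarb (log2 -0.70 ± 0.19, adjusted p = 0.0113 by limma, where 6.33% were called). Both calls were lost without DHEA animal 1 (0.59 and -0.55), the first also without AA animal 3 (0.67) and the second without Mcarb animal 3 (-0.53).

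CPA and PB gave MAPK14 values below all their controls without a call. The CPA animals read 0.372, 0.341 and 0.364 against 0.454, 0.452 and 0.677 (log2 -0.53 ± 0.19 SE, adjusted p = 0.0825 by limma), and 0.633% of all analytes lay below their controls with CPA. Centring, which takes out the general rise in these animals, gave -0.75 (adjusted p = 0.00185, with 5.7% of all analytes called), and the log2 matrix gave -0.84 (adjusted p = 0.000431). The PB animals read 0.36, 0.413 and 0.449 against 0.676, 0.493 and 0.587 (log2 -0.52 ± 0.19 SE, adjusted p = 0.0665 by limma). There the median of all analytes was 0.29 lower, 17.7% of analytes lay below their controls, and after centring -0.11 was left (adjusted p = 0.804).

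**Figure D3:**
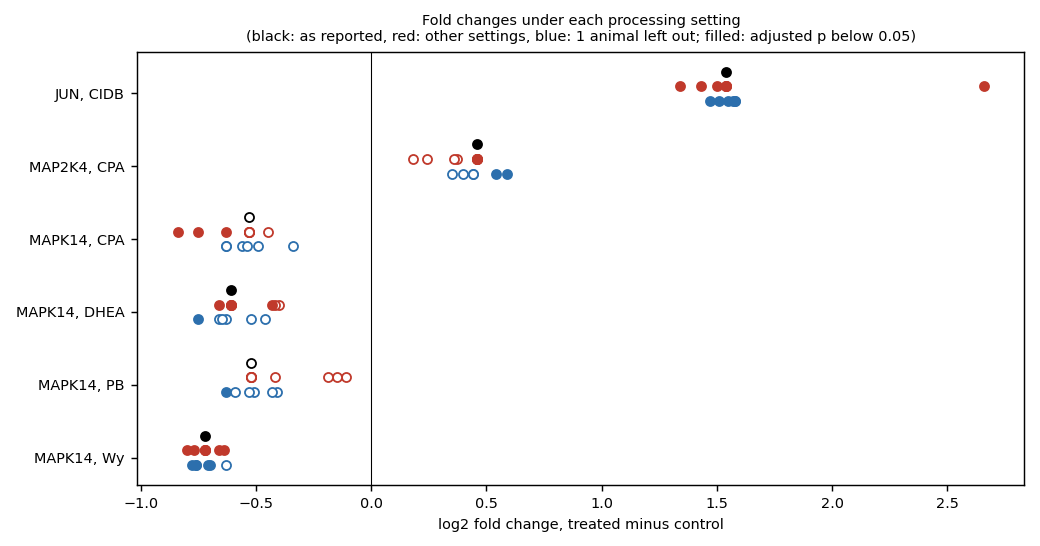
Log2 fold changes (x axis) of 6 analyte and compound pairs under each processing setting. Black shows the value as reported, red other settings, blue the fits with 1 animal left out, and filled symbols an adjusted p below 0.05; all JUN values in CIDB are filled, while MAPK14 in CPA is open as reported (-0.53) and filled after centring (-0.75).

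At the upper end, MAPK14 in the CIDB animals was 0.586, 0.553 and 0.699 against 0.406, 0.508 and 0.478 in set 3. The treated animals lay above the controls, as was so for 16.5% of all analytes with CIDB. The log2 difference of 0.40 ± 0.19 (SE) was not called (adjusted p = 0.243, limma). Group means of MAPK14 ran from 0.317 to 0.613, and every group overlapped its neighbour in this order. The lowest 5 groups were Wy, DHEA, CPA, PB and PBO.

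Phosphorylated MAPK14 varied most between animals of a group, with an SD of 0.39 on the log2 scale, and no compound had a call. DES stood highest: 1.04, 1.0 and 1.16 against 0.438, 0.691 and 0.724 in set 5. All DES animals were above their controls and above the range of the next group, AA, and the log2 difference was 0.83 ± 0.31 (SE, adjusted p = 0.269 by limma). Over all 18 vehicle controls, however, the RFI ran from 0.27 to 1.22, so the DES values lay within that range. Wy stood lowest, with 0.391, 0.46 and 0.531 against 0.605, 0.676 and 0.79 in set 1. These groups did not overlap either, and the log2 difference was -0.59 ± 0.31 (SE, adjusted p = 0.342 by limma). Separation in these directions was found for 10.1% of all analytes with DES and 22.2% with Wy. With DHEA, where total MAPK14 also fell, the phosphorylated form differed by -0.07 ± 0.31 (SE, adjusted p = 0.917 by limma).

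The ratio of the phosphorylated to the total signal in the same animal tells whether both forms moved together. It was tested for the 45 phosphorylated analytes that have a total, and 4 of the 30 tests of MAP2K4 and MAPK14 were called, against 5.78% of the tests of all such ratios, of which 19.7% had treated animals outside the range of their controls. Since the signals of 2 antibodies are compared, the ratio has no absolute scale and only its differences between groups can be read.

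With CPA the MAPK14 ratio was 2.34, 2.05 and 2.17, against 0.595, 1.72 and 0.805 in set 4. All treated animals were above the controls, which were themselves widely spread. The ratio was 2.33-fold higher (log2 1.22 ± 0.26 SE, adjusted p = 0.000876 by limma, with 17.8% of ratios called), a difference to which a lower total and a higher phosphorylated signal both added, neither of them called alone. Against all corn oil controls it was 0.77 on the log2 scale (adjusted p = 0.0204), and with only the 6 animals of the comparison it was not called (adjusted p = 0.2).

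With DES the MAPK14 ratio was 2.17, 2.19 and 1.82 against 1.05, 1.19 and 1.52. The groups did not overlap, and the ratio was 1.65-fold higher (log2 0.73 ± 0.26 SE, adjusted p = 0.0464 by limma, with 17.8% of ratios called), while total MAPK14 differed by 0.10. The MAP2K4 ratio in the same livers was 0.717, 1.17 and 0.72 against 0.609, 0.486 and 0.595, or 1.51-fold higher (log2 0.59 ± 0.22 SE, adjusted p = 0.0486 by limma). Both calls were near the threshold: the first was lost without DES animal 1 or 2 or control 7 or 8, and the second without DES animal 1 or 2 or any of the 3 controls, among which leaving out DES animal 2 gave the smallest MAP2K4 difference (0.36, adjusted p = 0.442). Neither was called in the log2 matrix (adjusted p = 0.214 for MAPK14 and 0.239 for MAP2K4) or with only the 6 animals of the comparison (adjusted p = 0.065 and 0.24).

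CIDB went the other way. Its MAPK14 ratio was 1.45, 0.805 and 0.743 against 1.44, 1.47 and 2.55 in set 3, and the first treated animal lay within the range of the controls. The ratio was 1.84-fold lower (log2 -0.88 ± 0.26 SE, adjusted p = 0.0112 by limma, with 24.4% of ratios called). The control animal at 2.55 weighed on this value: without it, control 6 of set 3, the difference was -0.61 (adjusted p = 0.111), against all corn oil controls it was -0.43 (adjusted p = 0.195), and the call was also lost without CIDB animal 2 or 3. The MAP2K4 ratio with CIDB was 1.01, 0.796 and 0.901 against 0.659, 0.536 and 0.763, above all controls but not called (log2 0.47 ± 0.22 SE, adjusted p = 0.0932 by limma). Where total MAPK14 fell, its ratio was not called: log2 0.54 with DHEA (adjusted p = 0.263) and 0.14 with Wy (adjusted p = 0.803, both limma).

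**Figure D4:**
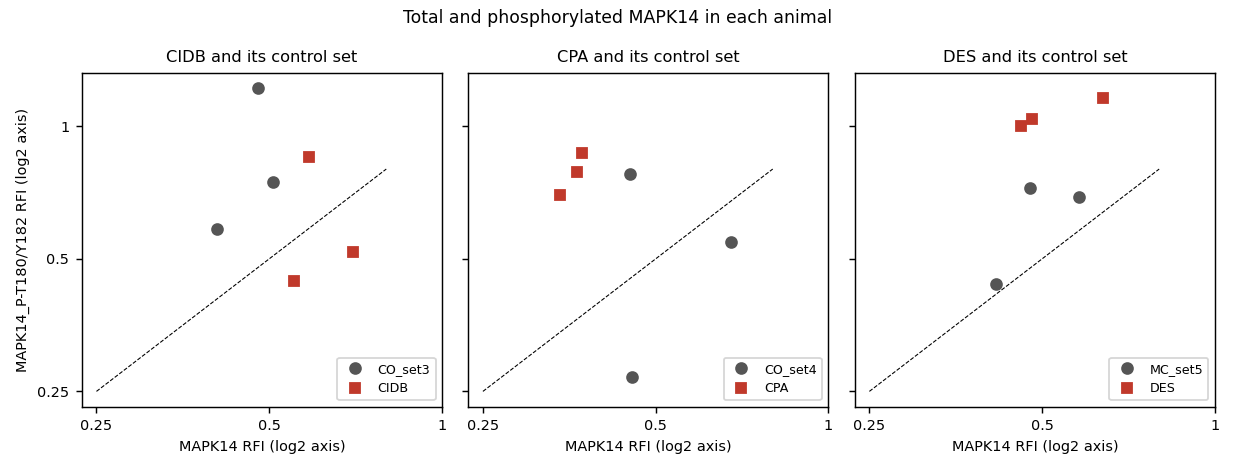
RFI of total MAPK14 (x axis) and MAPK14 phosphorylated at T180/Y182 (y axis), both on log2 axes, in the animals of CIDB, CPA and DES (red squares) and their control sets (grey circles); the dashed line marks equal RFI. CPA animals lie to the left of their controls, DES animals above theirs, and CIDB animals to the right of theirs.

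Among the other proteins of the pathway, 9 analytes of 6 genes are described here, out of a list of 29 genes. Of their 135 tests 4 were called, all lower (2.96%, where 1.73% of the tests of all analytes were called lower), and 16 had an unadjusted p below 0.05. All 4 concerned MAPK8 (JNK1), the kinase downstream of MAP2K4 that phosphorylates JUN, in the 2 compounds in which MAPK14 fell.

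With Wy, MAPK8 read 0.702, 0.71 and 0.723 against 1.17, 1.48 and 1.23 in set 1 (log2 -0.86 ± 0.19 SE, adjusted p = 0.00149 by limma). With DHEA it read 0.504, 0.913 and 0.921 against the same controls (log2 -0.78 ± 0.19 SE, adjusted p = 0.00558 by limma), and that call was lost without DHEA animal 1 or control 5. Both groups lay below their controls, as was so for 22.2% of all analytes with Wy and 24.1% with DHEA. MAPK8 phosphorylated at T183/Y185 was also lower, by -0.74 ± 0.23 with Wy (adjusted p = 0.0276) and -0.73 ± 0.23 with DHEA (adjusted p = 0.0411), both in the limma fit. Each of these 2 calls was lost without any of the 3 controls and without treated animal 1 or 2. In the log2 matrix MAPK8 was called with Wy (-0.84) but not with DHEA (-0.55), and its phosphorylated form with neither (-1.04 and -0.87). The 2 compounds share their controls, so these are not separate observations of the control level.

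The remaining 7 pathway analytes had no call against the labelled control sets. The 4 calls of the pathway became 7 after centring, 8 against all controls of the vehicle and 3 in the log2 matrix. ELK1, a transcription factor phosphorylated by MAP kinases, had log2 differences between -0.94 and 0.09, and lay outside its controls in 7 of 15 compounds (over all analytes, 16.1% of such tests). It was called after centring with CIDB (-0.89, adjusted p = 0.0356 by limma) and against all controls of the vehicle with DHEA, MPy and Wy. Phosphorylated MAPK8 was called lower with PBO after centring (-0.55, adjusted p = 0.0162 by limma). NFKBIA, with a median RFI of 0.132, was called higher with PB after centring (0.44, adjusted p = 0.0173 by limma). Without centring that difference was 0.03, and in the log2 matrix -0.26. Against all controls of the vehicle NFKBIA was called higher with PBO (0.46, adjusted p = 0.0259 by limma). In the log2 matrix the sign was opposite with PBO (-1.25, adjusted p = 0.404 by limma). DUSP4, a phosphatase that dephosphorylates MAP kinases, ranged from -0.27 to 0.67 and was called with DES and ETH in the log2 matrix, and MAP3K7 (TAK1), an upper-tier kinase of the relay, from -0.30 to 0.37. The median log2 difference of the 9 pathway analytes was 0.24 with CPA, -0.13 with DHEA, -0.07 with Wy and 0.16 with CIDB, beside medians of all analytes of 0.23, -0.18, -0.10 and 0.08.

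**Figure D5:**
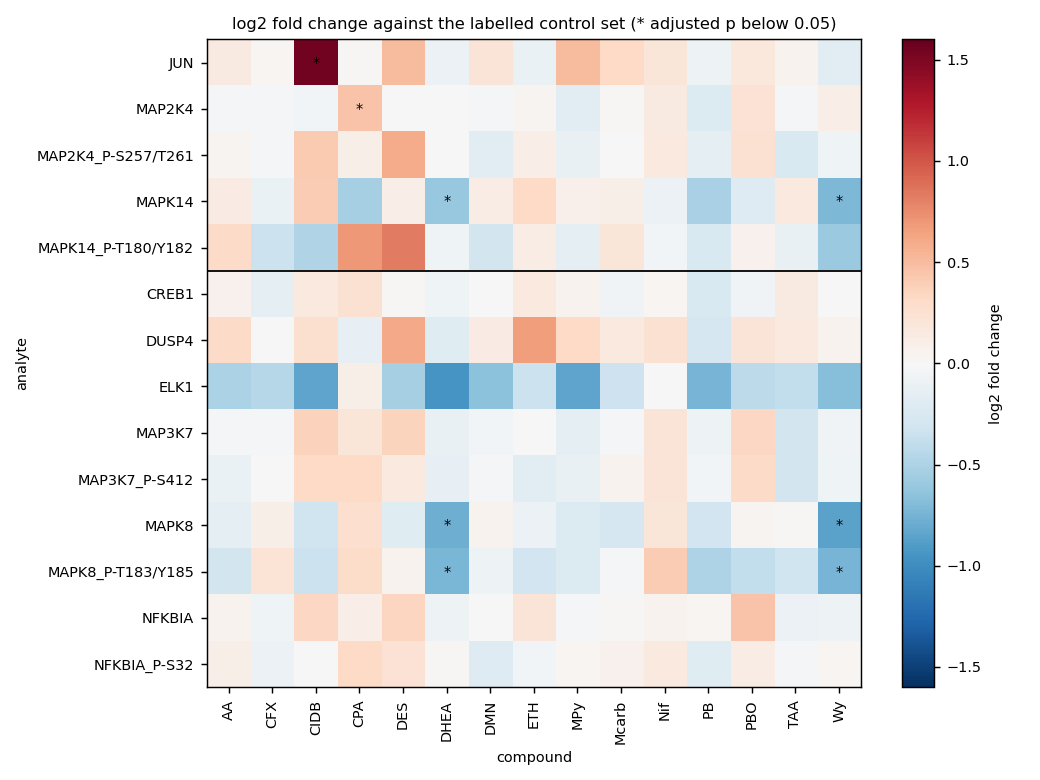
Log2 fold change against the labelled control set (colour scale) of the 5 stress kinase analytes (above the line) and 9 other pathway analytes (below it) in 15 compounds. Stars mark an adjusted p below 0.05; below the line they stand only at MAPK8 and its phosphorylated form, in DHEA and Wy.

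Hepatocyte markers moved in the same livers. Of the 12 marker analytes, 3 were called lower with CIDB, 3 lower with Wy and 1 (GLUL) lower with DES, while 3 were called higher with CPA and 1 (CYP3A4_2, log2 1.08, adjusted p = 0.0297 by limma) higher with DHEA. Apart from CYP2B6_1 (0.11), the other markers were lower with DHEA without a call. Among these were GLUL (-2.21, adjusted p = 0.0649 by limma), CYP2B6_3 (-1.26), CYP2C8 (-1.05) and the other CYP3A4 antibody, CYP3A4_1 (-0.29). Glutamine synthetase (GLUL), a marker of hepatocytes around the central vein, was lower with CIDB (log2 -3.89, adjusted p = 0.000172 by limma) and with Wy (-3.73, adjusted p = 0.00149) and DES (-2.77, adjusted p = 0.0217), in Wy with a treated RFI below 0 left out of the fit. Markers were also called in compounds without a call among the stress kinase analytes or their ratios. With TAA 3 were called lower, among them GLUL (log2 -4.0, with a treated RFI below 0 left out). With PB 2 were called higher and 1 lower, with PBO 3 higher and with ETH 1 higher. In most animals the larger part of the summed RFI of the 12 markers came from the antibody CYP2B6_3, so the sum is given without it and without values at or below 0. The other 11 summed to 14.1 to 23.1 with CIDB against 15.9 to 25.4 in its controls, and to 20.4 to 41.4 with DES against 19.6 to 22.3. They summed to 13.9 to 17.7 with Wy and 14.6 to 21.9 with DHEA against 19.4 to 25.9, and to 61.5 to 70.4 with CPA against 12.2 to 19.8. Only Wy lay wholly below and CPA wholly above the controls among these 5 compounds. With CPA most of the sum came from 1 antibody, CYP3A4_2, which read 41.7 to 43.3 against 0.865 to 1.14. HNF4A (log2 0.04) and the other CYP3A4 antibody (CYP3A4_1, 0.05) hardly differed there, and GLUL was lower without a call (-1.34). CYP2B6_3 itself read 20.5 to 54.3 with CIDB against 65.3 to 83.9, 16.8 to 27.4 with Wy and 38.2 to 43.2 with DHEA against 69.8 to 137.0, 67.7 to 249.0 with DES against 77.5 to 148.0, and 105.0 to 253.0 with CPA against -3.58 to 150.0. MKI67, a marker of dividing cells, was not called in these 5 compounds. The part of these markers in the stress kinase results was not tested.

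Between compound classes, 0 of 15 tests of the 5 analytes were called by limma with the compound as the unit, where 0.633% of all tests were, and 2 had an unadjusted p below 0.05. Both GCs were dosed in corn oil and share control set 3, while all 8 NGCs were dosed in methylcellulose. Both NCs share control set 2, which served no NGC. Class therefore cannot be told apart from control set, nor NGC against GC from vehicle. Compounds of a control set also share its 3 animals, so they are not fully independent units. JUN was lower in the 8 NGCs than in the 2 GCs by a log2 difference of -0.73 ± 0.28 (SE, adjusted p = 0.388), with compound means from -0.16 to 0.48 in NGCs and at 0.20 (DMN) and 1.54 (CIDB) in GCs. Without CIDB the difference was -0.06, and without DMN, whose value lay within the range of the NGCs, it was -1.40 (adjusted p = 0.0169 by limma). Phosphorylated MAPK14 was higher in NGCs than in the 2 NCs by 0.47 ± 0.19 (SE, adjusted p = 0.358), and in the log2 matrix the sign turned (-0.14). Against all controls of the vehicle the difference was 0.04 (adjusted p = 0.999 by limma).

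Across the 21 group means, centred on each animal's median, JUN and phosphorylated MAP2K4 went together (Pearson r = 0.757, Spearman rho = 0.658, and r = 0.67 without the 2 groups farthest from the JUN median, CIDB and MPy). Within groups their deviations had r = 0.686 over the 63 animals. The centred JUN deviations of treated animals matched the log2 matrix values of phosphorylated MAP2K4 (Spearman rho 0.664) better than those of JUN itself (0.604). How far the 2 signals are separate measurements was not tested. Total and phosphorylated MAPK14 did not follow each other across groups (r = 0.215, rho = 0.0104), though within groups their deviations had r = 0.432. These correlations are descriptions, because the analytes were read from the same lysates and share the centring.

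Of the analytes outside these 5, the pattern most like JUN over the 21 group means was that of STAT3 (r = 0.838, rho = 0.674) and of STAT3 phosphorylated at Y705 (r = 0.829, rho = 0.322). Without CIDB and MPy r was 0.676 for STAT3 and 0.171 for its phosphorylated form. MAPK14 was most like MAPK3 (ERK1, r = 0.828, rho = 0.858) and CTNNB1 (β-catenin, r = 0.793, rho = 0.669). MAP2K4 was most like ITGAV (r = 0.738) and PPARA_1 (r = 0.72), and phosphorylated MAP2K4 like MAP3K7 (r = 0.836) and PPARA_2 (r = 0.766). For phosphorylated MAPK14 no analyte passed r = 0.568, reached by PRKAA1_P-T172 and BIK, and for BIK r was 0.0271 without DES and Wy.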

How the data were processed

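The authors deposited for each animal the RFI, an intensity on a linear scale, of 158 analytes; per the study's methods the local background was subtracted from each spot, signals were scaled over a whole array and replicate spots were combined into a weighted mean. They also deposited a matrix of log2 values, described as log2 ratios to control medians with imputed gaps, whose offset and reference animals the labels do not explain; it served as an alternative. Deviations from group means agreed between RFI (centred) and matrix with Spearman rho 0.604 for JUN, 0.539 for MAP2K4, 0.706 for phosphorylated MAP2K4, 0.488 for MAPK14 and 0.832 for phosphorylated MAPK14 over 45 treated animals; without centring rho was 0.146 for MAP2K4, where 66 other names matched better. After centring, a better match than the own name was still found for JUN (2 other names), MAP2K4 (1) and MAPK14 (1). For JUN the best of them was phosphorylated MAP2K4 (rho 0.664). The methods speak of blank-corrected signals, with the blank read from secondary antibody alone, for the ratios; that the deposited RFI holds values at or below 0 shows a subtraction, but which one is not given in the sources used here. Precision is limited by 3 animals a group.

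RFI at or below 0 (25 of 9954 values) were set to missing, the rest log2 transformed, and 21 group means fitted over 63 animals with limma 3.58.1 (R 4.3.3). P-values were two-sided, Benjamini-Hochberg adjusted over 158 analytes (45 for ratios), and called below 0.05. Class tests used means of log2 ratios to the control median per compound. The fit was tested on simulated data. The members, the pathway list and the tests were chosen with earlier results of these data known. The rule for named analytes took the members, called analytes of the pathway list and, for each member, the 2 others with the highest Pearson r. The pathway analytes ELK1, DUSP4, MAP3K7 and NFKBIA, uncalled against the labelled control sets, were named after their values were seen. A further gene of the pathway list is not reported here. For CPA and set 4, same-numbered animals deviated together (r = 0.307, 0.219 and 0.159). For PB and set 6 they did not (0.00721 to 0.0685). Of the compound pairs compared directly, the animals of AA and DHEA, AA and Mcarb, CFX and Nif, and DES and PBO also deviated together. The reported fits did not pair animals. A block for the animal number was an alternative only, set for both CPA and PB and for the compound pairs. Alternatives covered centring, reference, matrix, samples in the fit, shrinkage, dim analytes (10th percentile), a floor, leaving out animals and the pairing.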

Additional observations from a re-analysis of the deposited data

Results flagged for a closer look

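Compounds that share a control set and a dosing time were compared directly, and 3 of 35 such tests of the 5 analytes were called by limma, all in contrasts added after the data were seen. JUN was higher with CIDB than with DMN by 1.34 on the log2 scale (higher in 3 of 3 animals). MAPK14 was higher with AA than with DHEA by 0.74, and lower with DHEA than with Mcarb by -0.70. The last 2 contrasts share the DHEA animals. No explanation was tested.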

How the results depend on the processing

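Of 346 values recomputed for 26 results with an unadjusted p below 0.05, 291 kept their direction and their side of the threshold, 43 lost a call, 11 gained one and 1 changed sign (phosphorylated MAPK14, NGC against NC, at -0.14 in the log2 matrix). The 4 calls against the labelled control sets became 10 against all centred controls of the vehicle, where 7.59% of all tests were called, and 2 to 5 with 1 animal left out. MAP2K4 with CPA was not among the 10 (0.18, adjusted p = 0.277 by limma). Those added were JUN with DES and MPy, phosphorylated MAP2K4 with DES, MAP2K4 and MAPK14 with TAA, and MAPK14 with CPA and PBO. The 4 ratio calls became 2 in the log2 matrix, 0 with only the 6 animals of each comparison (6 at an unadjusted p below 0.05) and 1 to 4 with 1 animal left out. The 3 calls between compounds became 6 in the matrix, 1 with only the 6 animals and 1 to 3 with 1 animal left out. Control pairs stayed at 0 calls, and classes had 0 to 1 with 1 compound left out, the 1 being JUN without DMN (-1.40). With the replicate block for CPA and PB, 4 calls against control sets and 3 ratio calls were made, and with the replicate block between compounds 3. The 3 animals a group limit the precision, and the spread differs between analytes. The causes of these shifts were not tested.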

Other observations

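The animal with the highest number in its labels had the highest RFI of its group in 15 of 21 groups for MAPK14, in 15 for phosphorylated MAPK14 and in 14 for phosphorylated MAP2K4, but in 7 for MAP2K4. The median over the 158 analytes was 8 groups, and 11 analytes had 14 or more. This was noticed in the data and not tested, and the labels do not say what the numbers stand for.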
